A study of Mus musculus with 18 samples.

Results

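The genes described here are 10 long noncoding RNAs known for high or widespread levels in brain: Malat1, Neat1, Miat, Meg3, Rian, Mirg, Kcnq1ot1, Snhg14, Snhg11 and Gas5. They were chosen by name, with earlier results of these data known, and each symbol matched 1 row of the 55421 genes in the count table. RNA-seq was done on the striatum of mice of 12 to 14 months, the forebrain region whose projection neurons are most affected in Huntington's disease. The mice were WT (n = 5), zQ175 (n = 5), CK2a'(+/-) (n = 3) and zQ175:CK2a'(+/-) (n = 5), all labelled as strain C57BL/6. The zQ175 mice are heterozygous for a full-length Huntingtin knock-in with an expanded CAG repeat. CK2a'(+/-) mice lack 1 allele of Csnk2a2, which encodes the alpha prime catalytic subunit of protein kinase CK2, in every cell, and that line, first obtained on a mixed 129/SvEv-C57BL/6J background, was crossed over generations with the WT and zQ175 mice before use. The zQ175:CK2a'(+/-) mice carry both changes. The study asked how loss of 1 CK2 alpha prime allele alters the zQ175 striatum.

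Long noncoding RNAs act as RNA, many of them in the nucleus and at or near the place where they are made. Malat1 and Neat1 are neighbours that belong to nuclear speckles and to paraspeckles, and Neat1 is the RNA around which paraspeckle proteins assemble. Meg3, Rian and Mirg come from the maternal copy of the Dlk1-Dio3 imprinted region, while Kcnq1ot1 and Snhg14 are made from the paternal copy of their loci and run antisense to Kcnq1 and Ube3a. Snhg11, Snhg14 and Gas5 host small nucleolar RNAs, which guide the modification of other RNAs, in their introns.

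Kcnq1ot1 and Snhg14 were the members called by edgeR in zQ175 against WT, both of them higher in zQ175 mice, so their RefSeq promoter windows (GRCm38.p6, minus strand, 250 bases before to 50 bases after the RefSeq start) are given with every CCAAT box in capitals, read on either strand as CCAAT or ATTGG. The box is the binding motif of the factor NF-Y, and 37.4% of 32851 promoter windows of this length held at least 1.
Kcnq1ot1, chr7:143296498-143296797: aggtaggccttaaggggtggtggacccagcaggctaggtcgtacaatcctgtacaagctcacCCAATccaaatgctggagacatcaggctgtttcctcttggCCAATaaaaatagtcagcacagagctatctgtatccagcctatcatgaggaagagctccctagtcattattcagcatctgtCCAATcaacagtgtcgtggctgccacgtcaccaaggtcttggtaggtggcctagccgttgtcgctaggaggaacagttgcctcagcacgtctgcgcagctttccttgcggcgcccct
Snhg14, chr7:60450128-60450427: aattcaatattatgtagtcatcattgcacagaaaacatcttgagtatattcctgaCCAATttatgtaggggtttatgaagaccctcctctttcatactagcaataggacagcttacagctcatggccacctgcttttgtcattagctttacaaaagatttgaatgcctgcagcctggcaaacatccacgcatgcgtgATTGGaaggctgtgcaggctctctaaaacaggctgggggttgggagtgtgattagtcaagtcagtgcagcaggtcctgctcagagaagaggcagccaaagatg
The Kcnq1ot1 window held 3 boxes, all on its own strand, and 3 or more were found in 3.37% of all windows. The Snhg14 window held 2 boxes, at 195 and 53 bases before the start, and 2 or more were found in 11.7% of windows. Neither window held the TATA box TATAAA, which was present on either strand in 13.6% of windows. Nor did they hold the cyclic AMP response element TGACGTCA, which was present in 1.79% of windows. The annotated starts differ in how far they lie from the rows that were counted: the RefSeq start of Kcnq1ot1 was 2 bases from the start of its row, whereas that of Snhg14 was 474418 bases upstream of its row. Windows were found for 9 of the 10 members, and these letter matches say nothing of binding.

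The libraries held between 13612381 and 22702547 assigned counts (median 18005044), and 20914 genes passed the filter on low counts, all 10 members among them. The labels name a stranded total RNA kit, so RNA without a poly(A) tail was also sampled. Csnk2a2 followed the labels, at 14.7 to 19.9 CPM (counts in every 1000000 of the TMM-scaled library size) in the 8 mice with the CK2a'(+/-) allele and at 29.4 to 37.5 CPM in the others. All 8 striatal projection neuron markers had counts in every library. Several libraries stood apart in markers of adjoining tissue. The 5 choroid plexus markers summed to 975 to 3083 CPM in 4 libraries (WT replicates 1 and 3, CK2a'(+/-) replicate 1 and zQ175:CK2a'(+/-) replicate 2) and to at most 21.6 CPM in the other 14. The 5 thalamic markers reached 1293 CPM in zQ175 replicate 1, and the 6 cortical excitatory markers reached 402 CPM in zQ175 replicate 5.

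The word abundant held for some members and not for others. Per kilobase of exon, Malat1 averaged 2687 ± 245 CPM per kb (SD, n = 18) and was the 4th gene of the whole table by count, taking 1.59% to 2.17% of each library. Snhg11 followed at 141 ± 29.7 CPM per kb and Gas5 at 19.6 ± 3.14, and the ranges of these 3 over the 18 mice did not overlap. Snhg14 (10.8 ± 1.49), Miat (9.38 ± 3.86), Mirg (9.34 ± 1.19), Neat1 (7.24 ± 1.41) and Kcnq1ot1 (4.48 ± 0.624 CPM per kb) came next, and over the 18 mice pooled each of them overlapped the next in range. Within genotypes their order differed: Mirg lay above Miat without overlap in zQ175:CK2a'(+/-), Neat1 came before Miat and Mirg by mean, with overlap, in CK2a'(+/-), and Neat1 and Kcnq1ot1 overlapped in zQ175 mice only. Meg3 was at 0.404 ± 0.156 CPM per kb, below the range of Kcnq1ot1, and Rian at 0.0289 ± 0.00766 CPM per kb was below that of Meg3.

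**Figure D1:**
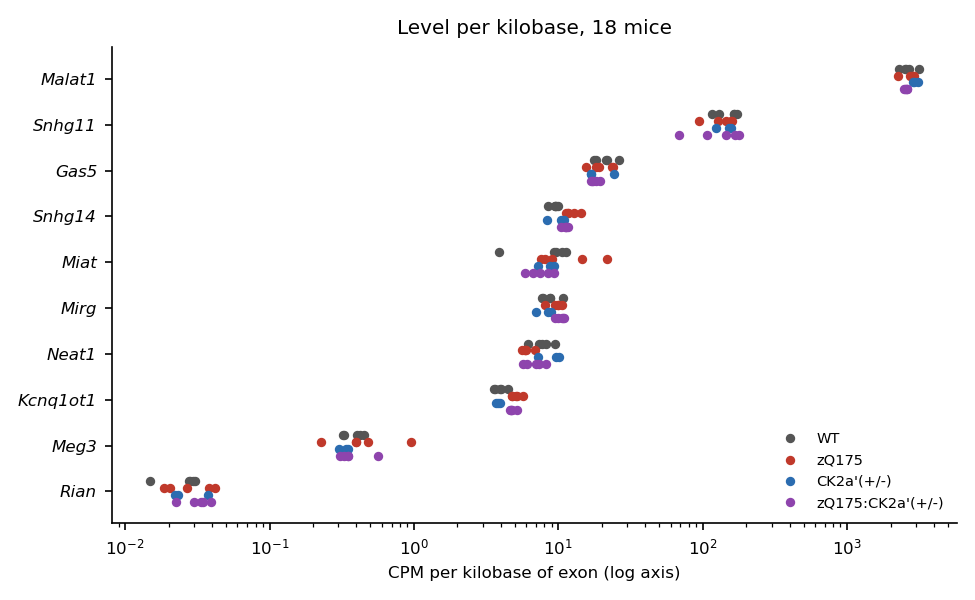
Level of each long noncoding RNA in CPM per kilobase of exon (log axis), 1 point per mouse, coloured by genotype. Malat1 lies near 2687 CPM per kb, the 5 RNAs from Snhg14 to Kcnq1ot1 each overlap the next, and Meg3 and Rian lie below 1 CPM per kb in every mouse.

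Meg3 and Rian are textbook neuronal RNAs, but in this table they were at 67 to 296 and 7 to 25 counts per library. Their mean CPM stood at percentiles 49.4 and 19.3 of the genes tested. Sharing of exons with other rows was small, at 1.5% of the bases of Meg3 and 3.35% of those of Rian, and why the counts were low was not tested. Mirg, which lies downstream of both in the same orientation, was at 928 to 1769 counts. Between the end of Rian and the start of Mirg on chromosome 12, 31 of 38 rows on the same strand had counts, 19005 in all, of which 7105 were in 24 microRNA rows. Values for Meg3 and Rian below therefore rest on few reads.

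Overlap with other rows touched some members. Rows of at least 200 bases wholly inside exons of other genes were at or above 1 count in 74.4% of 262 cases when the other gene was on the opposite strand and in 19.4% of 248 cases when it was on the same strand. The pattern is that of strand-specific counting, although the setting used is not given in the sources used here. Snhg14 shared 6.91% of its exon bases with rows on the opposite strand, chiefly Ube3a, Miat shared 24.3%, and Kcnq1ot1 1.20%. Gas5 shared 17.8% of its bases with same-strand rows, chiefly of the small nucleolar RNAs it hosts, and 2.23% with the microRNA row Mir5117 among them.

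Together the 10 members took 2.05% ± 0.141 of assigned counts in WT (SD, n = 5), 2.11% ± 0.177 in zQ175 (n = 5), 2.28% ± 0.137 in CK2a'(+/-) (n = 3) and 2.03% ± 0.0543 in zQ175:CK2a'(+/-) (n = 5). Most of this was Malat1. None of the 4 comparisons tested passed the two-sided exact permutation test. The largest difference among these 4, CK2a'(+/-) against WT, was 0.232 percentage points with an exact p of 0.0893 (0.357 after Benjamini-Hochberg adjustment), where the smallest p this pair of group sizes allows is 0.0179. Its exact p was 0.0286 without WT replicate 2 and 0.0476 without CK2a'(+/-) replicate 3, in each case the smallest the reduced groups allow. It was 0.0857 when any 1 of the other WT mice was left out and 0.238 without CK2a'(+/-) replicate 1 or 2. For zQ175:CK2a'(+/-) against zQ175 the exact p was 0.413. It was 0.0238 without zQ175 replicate 1 and 0.365 to 0.81 when any 1 other mouse was left out. The other 2 pairs of genotypes were tested after the data were seen. The 5 zQ175:CK2a'(+/-) mice (1.963% to 2.103%) lay below the 3 CK2a'(+/-) mice (2.143% to 2.416%), a difference of -0.253 percentage points with an exact p of 0.0179, the smallest these group sizes allow, and 0.107 after adjustment over all 6 pairs. For zQ175 against CK2a'(+/-) the exact p was 0.232.

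**Figure D2:**
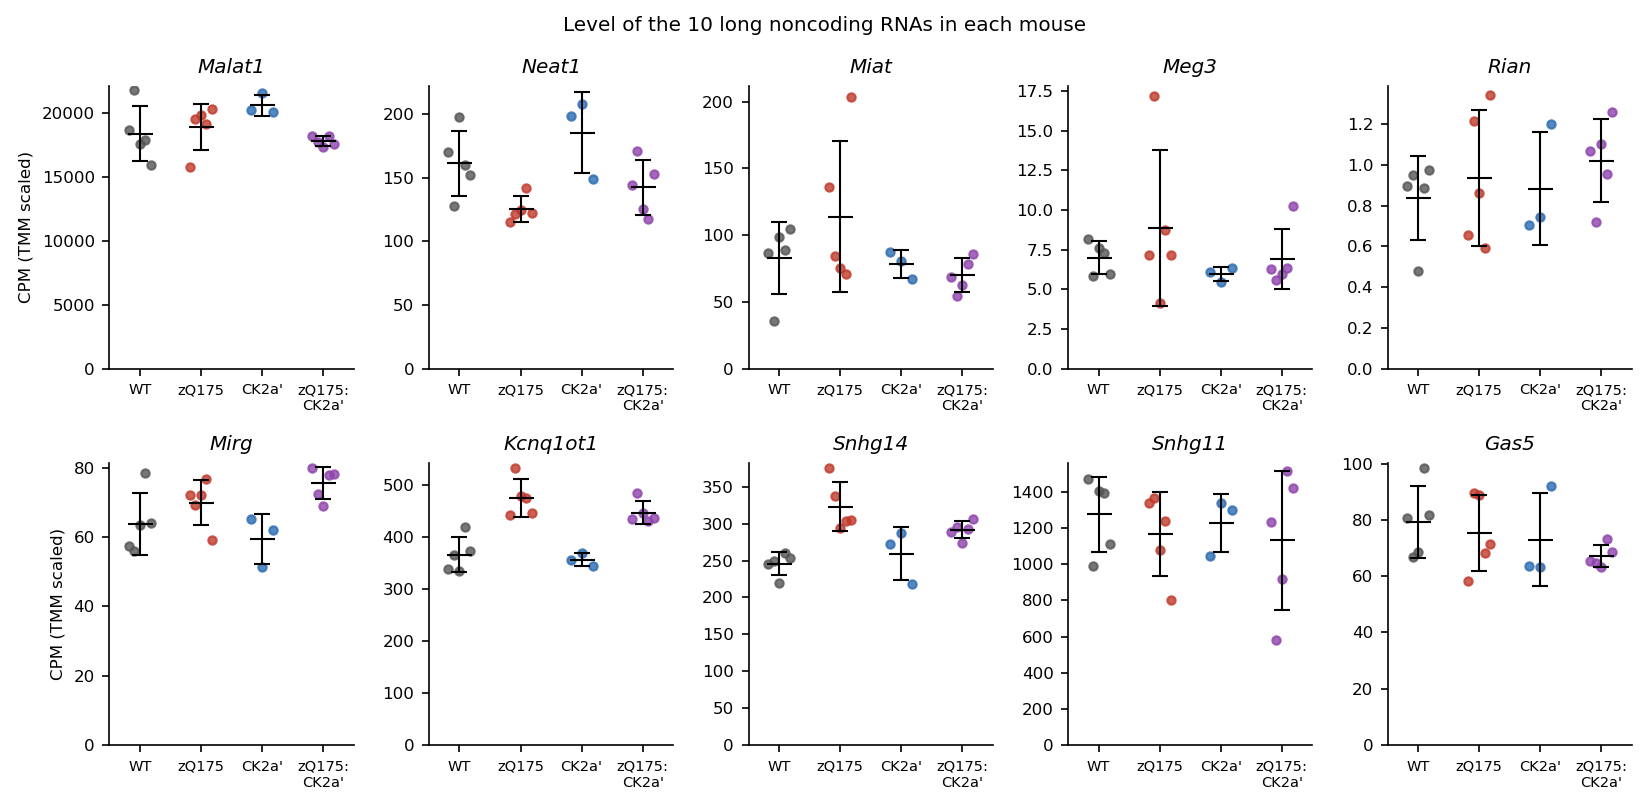
CPM of each of the 10 RNAs in each mouse by genotype (CK2a' stands for CK2a'(+/-)), with the mean (dash) and SD (bars), all axes from 0. All 5 zQ175 and all 5 zQ175:CK2a'(+/-) mice lie above the 5 WT mice for Kcnq1ot1 and Snhg14, while the other RNAs overlap between these genotypes.

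In zQ175 against WT, 2 of the 10 members were called at a false discovery rate (FDR) under 0.1, both higher, against 1.1% of all genes tested (230 genes, 81 higher and 149 lower). Higher values in zQ175 were found for 7 of the 10 members, and the median over the members was 0.14 (log2 fold change), beside 0.00424 over the whole set of genes tested. Kcnq1ot1, the antisense RNA that silences genes around Kcnq1 on the paternal chromosome, was at 339, 365, 335, 418 and 372 CPM in the WT mice. It was at 442, 533, 478, 475 and 447 CPM in the zQ175 mice, so the groups did not overlap. The log2 fold change was 0.38 (SE 0.0729, edgeR quasi-likelihood FDR 0.0469), a 1.3-fold higher level.

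Snhg14, the long paternal transcript whose distal part runs antisense to Ube3a in neurons, was at 246, 249, 220, 260 and 253 CPM in WT. The zQ175 mice were at 375, 337, 295, 304 and 305 CPM, again without overlap. The log2 fold change was 0.40 (SE 0.0821, FDR 0.0469), or 1.32-fold. Separation of the groups was found for 2.44% of all genes tested in this comparison. In bulk tissue, a change in the share of cells that make an RNA and a change in RNA per cell cannot be told apart.

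The calls of both RNAs were lost when single libraries were left out, while the direction held. Without WT replicate 1, WT replicate 3 or zQ175 replicate 5 neither passed FDR 0.1, and without zQ175 replicate 1 Snhg14 did not. Over the 18 fits that each leave out 1 mouse, the log2 fold change ran from 0.32 to 0.43 for Kcnq1ot1 and from 0.34 to 0.42 for Snhg14, and the FDR reached 0.155 for each. With only the WT and zQ175 libraries in the fit, the FDR was 0.153 for Kcnq1ot1 and 0.149 for Snhg14, and 0 genes of the table were called. Over the whole table the 230 genes fell to 10 without WT replicate 1, to 0 without WT replicate 3 or zQ175 replicate 5 and to 77 without zQ175 replicate 1, and rose to 587 without WT replicate 2. They were 133 to 153 without zQ175 replicate 3, CK2a'(+/-) replicate 2 or zQ175:CK2a'(+/-) replicate 1 or 3. With DESeq2 the adjusted p was 0.000507 for Kcnq1ot1 and 0.00196 for Snhg14, and Neat1 was also called, where 5.15% of 16443 genes with an adjusted p were.

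**Figure D3:**
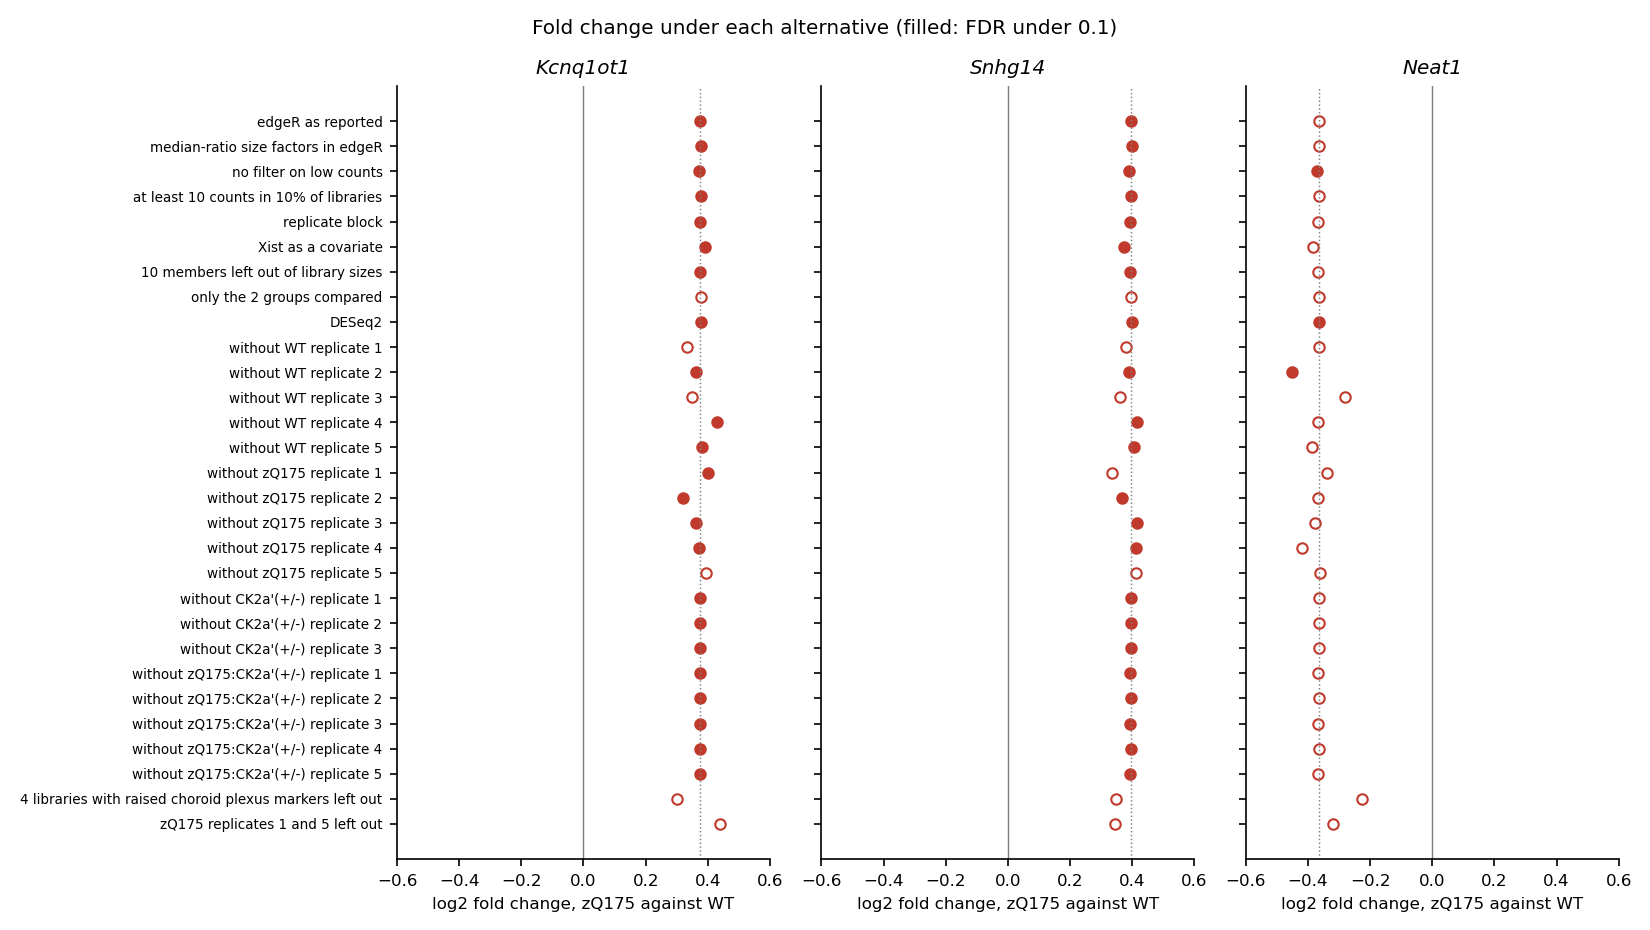
Log2 fold change of Kcnq1ot1, Snhg14 and Neat1 in zQ175 against WT (horizontal axis) under each alternative processing (vertical axis), filled where the FDR was under 0.1. The dotted line is the value as reported. Points stay on 1 side of 0 for all 3 RNAs, and the filled and open points overlap in fold change for Kcnq1ot1 and Snhg14. For Neat1 the filled points lie at -0.36 to -0.45, and some open points lie nearer to 0, such as -0.28 without WT replicate 3.

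Markers of other cells moved with the same comparison. The 6 cortical excitatory markers summed to 29.0 to 92.8 CPM in WT and 95.1 to 402 CPM in zQ175, with Tbr1 called higher (log2 fold change 1.27, FDR 0.0902). Neurod6 was at 0 in 1 library and no other cortical marker was at 0. Of the 6 mature oligodendrocyte markers, 4 were called lower, among them Mbp (-0.58) and Mobp (-0.60 on the log2 scale), and their sum was 3525 to 5302 CPM in zQ175 and 5399 to 7459 CPM in WT. Of the 8 striatal projection neuron markers, 3 were called lower, namely Penk, Adora2a (-1.12) and Ppp1r1b (-0.85), with sums of 1297 to 2594 CPM in zQ175 and 2386 to 5747 CPM in WT. Of 6 microglia markers, C1qa was called lower (-0.64), and none of the astrocyte, thalamic, endothelial, choroid plexus or general neuronal markers was called. Yet all 5 choroid plexus markers were lower (median log2 fold change -4.03, 3 at an unadjusted edgeR p under 0.05), with WT replicates 1 and 3 raised. All 5 thalamic markers were higher (median 0.64, 0 at such a p). General neuronal markers were 4 higher and 2 lower (median 0.14, 3 at such a p). The part of these shifts in the higher Kcnq1ot1 and Snhg14 was not tested. In zQ175:CK2a'(+/-) mice the cortical sum was 61.3 to 97.4 CPM, the oligodendrocyte sum 4016 to 5422 CPM and the projection neuron sum 2130 to 3011 CPM.

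Leaving out the 4 libraries with raised choroid plexus markers gave log2 fold changes of 0.30 for Kcnq1ot1 and 0.35 for Snhg14, each with an FDR of 0.496. Leaving out zQ175 replicates 1 and 5, which had the highest thalamic and cortical sums, gave 0.44 and 0.35, each with an FDR of 0.245. Both sets were chosen after the data were seen.

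Ube3a, the ubiquitin ligase gene that lies antisense to the distal part of Snhg14, was higher in zQ175 by 0.26 (SE 0.0701) on the log2 scale with an FDR of 0.105, just past the threshold. This gene and the others of both loci given here were named after their values were seen, as none passed the threshold. In the same locus, Snrpn had a log2 fold change of 0.03 and Ndn 0.13, and none of the 6 Prader-Willi and Angelman genes tested was called. Of these 6, 4 were higher and 2 lower (median log2 fold change 0.08). None of the 5 tested genes of the Kcnq1 imprinted region was called either. In that region, 1 gene was higher and 4 were lower (median log2 fold change -0.13), including Cdkn1c (-1.05, unadjusted p 0.049, FDR 0.358) and Cd81 (-0.19, FDR 0.306). All 5 were lower in zQ175:CK2a'(+/-) against WT (median -0.12) and in CK2a'(+/-) against WT (median -0.23). Kcnq1ot1 had log2 fold changes of 0.29 and -0.04 in these comparisons. Any link of these genes to Kcnq1ot1 was not tested. Kcnq1 itself had too few counts to be tested.

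Neat1, the scaffold of paraspeckles, was the member with the lowest fold change in zQ175. WT mice were at 170, 128, 198, 161 and 152 CPM and zQ175 mice at 116, 122, 125, 142 and 123 CPM, so that 4 zQ175 mice lay below every WT mouse. The log2 fold change was -0.37 (SE 0.117) with an unadjusted p of 0.0051, and the edgeR FDR of 0.161 did not pass. It passed under other settings: DESeq2 gave an adjusted p of 0.0799, and the edgeR FDR was 0.0921 without a filter on low counts and 0.0571 without WT replicate 2. Without WT replicate 3, which had the highest level, the log2 fold change was -0.28. WT replicates 1 and 3 are also libraries with raised choroid plexus markers, and without the 4 such libraries the log2 fold change of Neat1 was -0.23 (FDR 0.659). Whether choroid plexus RNA adds to Neat1 counts was not tested. Of 18 paraspeckle protein genes, 13 were higher and 5 lower in zQ175, none was called, and their median log2 fold change was 0.03.

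Malat1, which sits in nuclear speckles with splicing factors, was at 15924 to 21829 CPM in WT (median 17907) and 15748 to 20322 CPM in zQ175 (median 19571). Its log2 fold change in zQ175 was 0.04 with a 95% interval from -0.13 to 0.21. The ratio of Neat1 to Malat1, taken within each mouse, was -6.84 ± 0.349 in WT and -7.23 ± 0.142 in zQ175 (log2, SD, n = 5). None of 17 tested nuclear speckle protein genes was called in zQ175 against WT, with 11 higher and 6 lower.

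The remaining members gave no call in this comparison. At an unadjusted p under 0.05 there were 3 members of 10, beside 13.9% of all genes tested. Over the 7 members with an unadjusted p of 0.05 or more, log2 fold changes ran from -0.13 (Snhg11) to 0.46 (Miat) and FDRs from 0.451 to 0.895. Among other RNAs of these classes, none of 14 tested snoRNA host genes and none of 18 tested brain long noncoding RNAs was called, and the medians were -0.16 and 0.09.

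**Figure D4:**
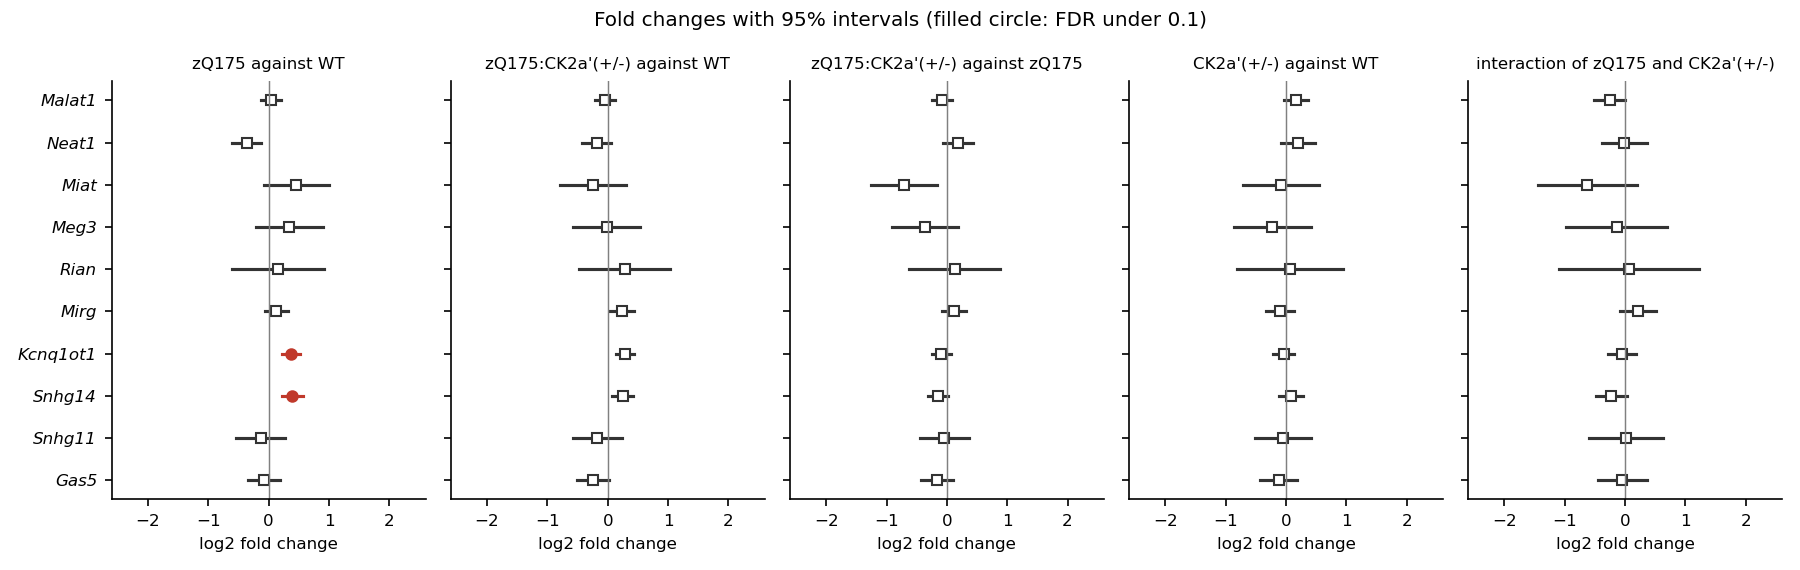
Log2 fold change (horizontal axis) with its 95% interval for each of the 10 RNAs in the 5 comparisons, filled circles marking an FDR under 0.1. The 2 filled circles are Kcnq1ot1 (0.38) and Snhg14 (0.40) in zQ175 against WT, and no other interval carries a call.

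In zQ175:CK2a'(+/-) against WT, 0 of the 10 members were called by edgeR, where 0.0143% of all genes tested (3 genes) were. By DESeq2, 1 member was called, Kcnq1ot1, where 0.722% of 17170 genes with an adjusted p (124 genes) were. At an unadjusted p under 0.05 there were 3 members of 10, beside 9.13% of all genes. Kcnq1ot1 was at 435, 484, 446, 432 and 437 CPM in these mice, a log2 fold change of 0.29 (SE 0.0729, FDR 0.237, DESeq2 adjusted p 0.0334). Without WT replicate 4, its edgeR FDR was 0.0965. Without the 4 libraries with raised choroid plexus markers its log2 fold change was 0.18, and it was not called.

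Snhg14 was at 289, 296, 274, 293 and 306 CPM in zQ175:CK2a'(+/-), 0.25 above WT on the log2 scale (SE 0.082, FDR 0.381). For both RNAs all 5 mice lay above all 5 WT mice, a separation seen for 1.84% of all genes tested. Taking all mice, each of the 10 with a zQ175 allele had more Kcnq1ot1 (432 to 533 CPM) than each of the 8 without (335 to 418 CPM), a separation found for 0.153% of all genes tested (32 genes). This pooling of genotypes was chosen after the data were seen. For Snhg14, 9 of the 10 did, the exception being zQ175:CK2a'(+/-) replicate 3 at 274 CPM, below the 287 CPM of CK2a'(+/-) replicate 2.

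**Figure D5:**
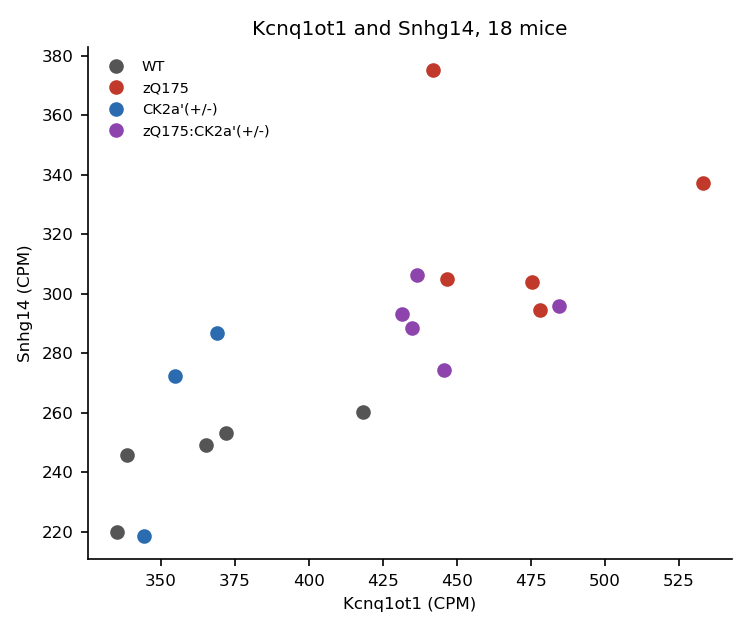
Snhg14 (vertical axis) against Kcnq1ot1 (horizontal axis), both in CPM, in each of 18 mice, coloured by genotype. Mice with a zQ175 allele lie at 432 to 533 CPM of Kcnq1ot1, and mice without it lie at 335 to 418 CPM.

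Mirg, a host of microRNAs at the far end of the Dlk1-Dio3 cluster, was the other member with an unadjusted p under 0.05 in zQ175:CK2a'(+/-) against WT. The WT mice were at 57.4, 56.1, 63.5, 78.6 and 64.0 CPM. The zQ175:CK2a'(+/-) mice were at 80.0, 72.4, 69.1, 77.8 and 78.3 CPM and so overlapped WT through WT replicate 4. The log2 fold change was 0.24 (SE 0.0952, unadjusted p 0.0194, FDR 0.444).

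Of 14 microRNA rows inside the Mirg locus, 10 had counts of their own, and the 4 that lie within Mirg exons, Mir134, Mir485, Mir377 and Mir410, were at 0 in all 18 libraries. These 4 rows share all of their bases with Mirg. Libraries of this kind do not measure mature microRNAs, so the mature sequences found for the 4 exonic precursors are shown only for reference. They are both arms of Mir134, Mir377 and Mir410 and the 3p arm of Mir485, as no 5p sequence of Mir485 was found. All are from RefSeq (GRCm38.p6, chromosome 12, plus strand), with the seed, bases 2 to 8, in capitals.
miR-134-5p: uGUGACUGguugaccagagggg
miR-134-3p: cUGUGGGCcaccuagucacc
miR-485-3p: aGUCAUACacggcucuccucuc
miR-377-5p: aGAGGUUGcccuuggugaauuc
miR-377-3p: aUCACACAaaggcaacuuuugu
miR-410-5p: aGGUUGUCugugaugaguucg
miR-410-3p: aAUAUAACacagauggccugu
No seed was shared among these 7 sequences. Of the 26 mature sequences found for the 14 genes, a single pair, miR-453 and miR-496a-5p, had the same seed, GGUUGCC.

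In zQ175:CK2a'(+/-) against zQ175, 0 of the 10 members were called by edgeR or DESeq2, where edgeR called 0.0143% of all genes tested and DESeq2 0.146% of those with an adjusted p. Miat, a nuclear RNA of neurons that binds splicing factors, was the 1 member with an unadjusted p under 0.05, beside 6.27% of all genes tested. The zQ175 mice were at 136, 84.6, 75.2, 70.7 and 203 CPM, with replicates 1 and 5 well above the rest. The zQ175:CK2a'(+/-) mice were at 69.0, 54.3, 62.5, 78.2 and 86.1 CPM. The log2 fold change was -0.70 (SE 0.263, unadjusted p 0.0142, FDR 0.644), and without zQ175 replicates 1 and 5 it was -0.13. These are the libraries with the highest thalamic and cortical marker sums, and the part of those tissues in the Miat level was not tested. Both were also low in Xist, used as a stand-in for sex, at 4.55 and 8.17 CPM. So were zQ175 replicate 3 (47.0 CPM) and zQ175:CK2a'(+/-) replicate 5 (8.05 CPM), while the other mice of both groups were at 990 to 1290 CPM. With Xist as a covariate the log2 fold change of Miat was -0.53 (FDR 0.94).

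Neither Kcnq1ot1 nor Snhg14 differed detectably between the 2 zQ175 groups. For Kcnq1ot1 the log2 difference, zQ175:CK2a'(+/-) minus zQ175, was -0.09 with a 95% interval from -0.24 to 0.06. For Snhg14 it was -0.15 with an interval from -0.32 to 0.02. Neat1 differed by 0.18 (interval -0.06 to 0.43), at 145, 171, 126, 118 and 153 CPM in zQ175:CK2a'(+/-).

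In CK2a'(+/-) against WT, 0 members were called by edgeR or DESeq2 and 0 had an unadjusted p under 0.05, beside 0.0143% of all genes called by edgeR, 0.0293% by DESeq2 and 4.48% of them with such a p. Log2 fold changes ran from -0.22 (Meg3) to 0.20 (Neat1). The 3 CK2a'(+/-) mice were at 355, 369 and 344 CPM of Kcnq1ot1, inside the WT range, and at 272, 287 and 219 CPM of Snhg14. For Malat1 they were at 20245, 21590 and 20094 CPM, where 4 of 5 WT mice were lower (log2 fold change 0.17, 95% interval -0.03 to 0.36). The interaction of the 2 alleles was called for 0 members by edgeR or DESeq2, with 0 at an unadjusted p under 0.05 (5.39% of all genes had such a p) and 0.00478% of all genes called by edgeR and 0.0747% by DESeq2. Its lowest unadjusted p among members was 0.0517 for Malat1 (log2 interaction -0.25). For Kcnq1ot1 the interaction was -0.05 with an interval from -0.28 to 0.18.

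Members differed in how much they varied among mice. The coefficient of variation of CPM over the 18 mice was lowest for Malat1 (9.13%) and highest for Miat (41.2%), followed by Meg3 (38.6%). Meg3 was at 17.1 CPM in zQ175 replicate 2 and at 4.12 to 10.2 CPM in the other 17 mice. Snhg11, the neuronal snoRNA host, ran from 581 CPM in zQ175:CK2a'(+/-) replicate 2 to 1514 CPM in replicate 4 of the same genotype. Rian and Meg3 from the same region had a log2 ratio of -3.05 ± 0.543 in WT (n = 5), and that of Mirg to Meg3 was 3.19 ± 0.264.

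Across the 18 mice, the 2 called RNAs had the highest correlation of log2 CPM among the 45 pairs of members (Pearson r 0.784, Spearman rho 0.837). The mice share genotypes, and after the genotype means were taken out r was 0.293. Kcnq1ot1 and Neat1 had the lowest r, -0.592, and 0.0876 within genotypes. These are descriptions without a test.

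Among 11786 genes with a mean of at least 5 CPM, those most like Kcnq1ot1 in pattern over the 18 mice were Creb1 (r 0.891), a transcription factor of the cyclic AMP response, and Dok6 (0.878). For Snhg14 they were 9330162G02Rik (0.909) and Cep170 (0.904), a centrosomal protein gene. Malat1 was nearest to Gria3 (0.920), a glutamate receptor subunit gene, and D430041D05Rik (0.884). Neat1 was nearest to Pde8a (0.846) and Cish (0.838), Miat to Arhgef25 (0.872) and Smyd2 (0.866), and Mirg to Gm6089 (0.829) and Lmx1b (0.815). For Meg3 they were Pom121 (0.766) and Shc4 (0.735), for Rian Cnot2 (0.816) and Cdkl4 (0.777), and for Snhg11 Lrrc73 (0.824) and Ring1 (0.802). As these are the highest of many correlations over the same 18 libraries, they rank likeness and no more.

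Gas5 was nearest to Gm3699 (0.925) and Rpl36-ps3 (0.923), the latter a row for a pseudogene of a ribosomal protein gene, whose reads may be shared with its parent gene. Gas5 is known as an RNA that begins with the pyrimidine tract shared by ribosomal protein mRNAs. The 50 bases around the second of its 2 RefSeq starts (GRCm38.p6, plus strand) are shown with that tract in capitals.
Gas5, chr1:161035145-161035194: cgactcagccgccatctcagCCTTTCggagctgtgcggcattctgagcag
The tract of 6 bases begins 1 base before the annotated start. Both starts were searched from 40 bases before to 50 bases after for the longest pyrimidine run beginning with C, and at the first start that run was 3 bases long and began 35 bases before it. Gas5 itself was at 66.7 to 98.3 CPM in WT, 58.3 to 89.6 CPM in zQ175, 63.1 to 92.0 CPM in CK2a'(+/-) and 63.3 to 73.2 CPM in zQ175:CK2a'(+/-), and its log2 fold change was -0.24 (95% interval -0.51 to 0.03) in the last against WT.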

How the data were processed

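Striatal RNA of 18 mice was sequenced with a stranded total RNA kit. Per the labels, the tools of the authors were FastQC, Trimmomatic, HISAT2 2.1.0 for alignment to GRCm38 and Subread 1.6.2 for counts per Ensembl gene. The deposited values are raw counts per gene and library, with no normalization. Gene coordinates and exon lengths are those of the deposited table, and 55154 of 55421 identifiers matched a symbol.

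The genotypes were compared with edgeR 4.0.16 under R 4.3.3 (filterByExpr, TMM, quasi-likelihood test), with all 18 libraries in 1 fit and 1 coefficient per genotype. P-values were adjusted by Benjamini-Hochberg over all 20914 genes tested, and genes were called at FDR under 0.1. CPM values use TMM-scaled library sizes. log2 CPM used a prior count of 2. DESeq2 1.42.0, another scaling, other filters, a stricter FDR of 0.05, Xist as a covariate (the labels give no sex, and the study's methods give unequal sex ratios), library sizes without the members, fits of 2 genotypes, a replicate block and leaving out each mouse were alternatives. The test was checked on simulated data.

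Members were named one by one where the unadjusted p was under 0.05, otherwise by range. From each gene list, up to 3 genes per comparison that passed FDR 0.1 and, for each member, the 2 genes with the highest r were named. Ube3a, Snrpn, Ndn, Cdkn1c and Cd81, and single values of Malat1, Neat1, Kcnq1ot1, Snhg14 and Gas5 at an unadjusted p of 0.05 or more, fall outside these rules and were chosen after their values were seen. The members and gene lists were chosen with earlier results of these data known. Replicates are separate mice. Replicate numbers shared between genotypes were not taken as pairs: deviations of same-numbered mice had correlations of -0.136 to 0.12, with 2 of 24 over 0.1. Sequences are RefSeq's. No files or samples were left out, and the values of 1 marker gene are not reported here.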

Additional observations from a re-analysis of the deposited data

Results flagged for a closer look

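In 30 groups of 5 mice (10 members in WT, zQ175 and zQ175:CK2a'(+/-)), 5 held a mouse whose gap to its nearest neighbour, over the group's range of log2 CPM, was above 0.71. Chance alone flags about 1 group in 20. Kcnq1ot1 in zQ175:CK2a'(+/-) replicate 2 was at 484 CPM, above the 432 to 446 CPM of the other 4, and this library was 1 of those with raised choroid plexus markers. Malat1 in zQ175 replicate 1 was at 15748 CPM beside 19170 to 20322 CPM in the others, and this library had the highest thalamic marker sum. Meg3 in zQ175:CK2a'(+/-) replicate 5 was at 10.2 CPM beside 5.60 to 6.32 CPM, on few counts. Miat in WT replicate 2 was at 35.9 CPM beside 86.3 to 104 CPM. Rian in WT replicate 3 was at 0.477 CPM beside 0.888 to 0.973 CPM, again on few counts. No cause was tested for any of these.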

How the results depend on the processing

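Kcnq1ot1 and Snhg14 stayed higher and called in zQ175 against WT under another scaling, both other filters, Xist as a covariate, library sizes without the members, FDR 0.05 and DESeq2. They were called in none of the fits of WT and zQ175 alone (0 members), without the 4 libraries with raised choroid plexus markers (0 members, 1 gene of the table) or without zQ175 replicates 1 and 5 (0 members, 0 genes). Fewer libraries enter these fits. Leaving out 1 mouse gave 0 to 3 members in zQ175 against WT, 0 to 1 in zQ175:CK2a'(+/-) against WT and 0 in the other 3 comparisons (lowest 0, highest 0). The 1 member called by DESeq2 in zQ175:CK2a'(+/-) against WT was Kcnq1ot1. Neat1 was the third member called in zQ175 against WT by DESeq2, without a filter on low counts and without WT replicate 2. The log2 fold changes of Neat1, Kcnq1ot1 and Snhg14 in zQ175 against WT, of Mirg, Kcnq1ot1 and Snhg14 in zQ175:CK2a'(+/-) against WT and of Miat in zQ175:CK2a'(+/-) against zQ175 kept their direction in every refit.

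The replicate block left both calls in place (FDR 0.0905 for each), but the labels do not say that mice of the same number are pairs. With the block, genes called over the whole table were 98 in zQ175 against WT and 1 in each of the other comparisons. In the order zQ175 against WT, zQ175:CK2a'(+/-) against WT, zQ175:CK2a'(+/-) against zQ175, CK2a'(+/-) against WT and interaction, where 230, 3, 3, 3 and 1 genes were called, DESeq2 called 847, 124, 39, 11 and 15, and edgeR without a filter on low counts called 451, 85, 51, 19 and 10. Leaving out 1 mouse gave 0 to 587, 1 to 34, 1 to 6, 1 to 9 and 0 to 2 genes. FDR 0.05 left 51 genes in zQ175 against WT, 1 in zQ175:CK2a'(+/-) against WT and 0 in the interaction. Fits of 2 genotypes called 0 genes in zQ175 against WT, 1 in zQ175:CK2a'(+/-) against WT and 0 in CK2a'(+/-) against WT. The interaction had 0 genes with Xist as a covariate, without the 4 choroid plexus libraries and without zQ175 replicates 1 and 5. The cause of these moves was not tested.

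The share of counts taken by the members in zQ175:CK2a'(+/-) minus WT was -0.0205 percentage points and 0.00767 when mitochondrial genes were left out of the total, with neither passing its test. Leaving out 1 mouse gave -0.077 to 0.0205 there, 0.00133 to 0.125 for zQ175 against WT, -0.146 to -0.0218 for zQ175:CK2a'(+/-) against zQ175 and 0.166 to 0.303 for CK2a'(+/-) against WT, whose exact p was under 0.05 in 2 of 8 cases. Meg3 and Rian are limited by their few counts.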
